A study of Mus musculus with 12 samples.

Results

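RNA made during a 30 min pulse of 4-thiouridine (4sU) was compared with total RNA of mouse embryonic stem cells (mESCs) taken at the same labeling time. The comparison used 4 of the 12 libraries of the series, 2 of labeled RNA and 2 of total RNA, chosen by their labels (Labeled or Total, 30 min, replicate 1 or 2) and not by any measured value. The other 8 libraries hold labeled and total RNA after 15 and 60 min. The cells were the XY line DTCM23/49, all of them received 200 µM 4sU in the medium, and the replicates were sister cultures passaged apart after 1 culture had been split, so both come from a single line. Labeled RNA was the part bound to streptavidin after biotin had been coupled to the thiol group, and total RNA was not selected. Exon and intron rows were analysed apart, because the former mostly report mature RNA and the latter RNA that has not yet been spliced.

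4sU is a uridine analog that cells take up and build into nascent transcripts. At steady state the share of a transcript that is new after a short pulse is set by how fast that transcript turns over, so short-lived RNA and introns, which are removed and degraded soon after synthesis, are known to be prominent in labeled RNA, while long-lived mRNA is known to be prominent in total RNA. Box C/D and H/ACA small nucleolar RNAs (snoRNAs), which guide the modification of ribosomal RNA, are mostly cut out of the introns of host genes, and many hosts are ribosomal protein genes or noncoding genes of the Snhg family. Ribosomal protein genes and several snoRNA hosts share a start site in a run of pyrimidines, the 5′ terminal oligopyrimidine (TOP) element, through which their translation is controlled.

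Annotated starts of the genes on which the comparison turns are printed here as windows of 40 bases on the gene strand. They come from RefSeq on GRCm38.p6 and hold 20 bases before and 20 from the start. A printed start need not be the outermost start of its gene. The windows of Rps2, Rpl7a and Xpo1 lie inside their genes, whose RefSeq spans start at chr17:24718121, chr2:26910685 and chr11:23255909. The first set is the 5 ribosomal protein genes with the highest intronic difference among those with a promoter entry. The next is snoRNA hosts with the highest exonic difference among the 4 tested of a host list drawn up by gene name. Hosts outside that list, such as Gm11974 (log2 1.88), reached higher differences. Xpo1, the nuclear export receptor, stands for the genes whose exons were lower in labeled RNA. Capitals mark the letters CTTTC, the only motif searched, on both strands.
Rps2, chr17:24720043-24720082, plus strand: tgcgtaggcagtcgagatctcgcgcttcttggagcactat
Fau, chr19:6057927-6057966, plus strand: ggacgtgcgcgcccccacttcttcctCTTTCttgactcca
Rpl7a, chr2:26910787-26910826, plus strand: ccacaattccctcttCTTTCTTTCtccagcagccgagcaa
Rpsa, chr9:120127746-120127785, plus strand: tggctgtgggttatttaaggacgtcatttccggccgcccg
Rpl27a, chr7:109519175-109519214, plus strand: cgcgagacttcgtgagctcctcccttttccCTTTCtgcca
Gas5, annotated start of the gene, chr1:161034581-161034620, plus strand: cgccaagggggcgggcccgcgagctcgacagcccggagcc
Gas5, further annotated start, chr1:161035146-161035185, plus strand: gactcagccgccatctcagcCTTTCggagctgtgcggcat
Snhg12, chr4:132308658-132308697, plus strand: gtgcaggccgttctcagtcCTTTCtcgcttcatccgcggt
Snhg3, chr4:132353667-132353706, minus strand: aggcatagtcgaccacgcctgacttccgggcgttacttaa
Xpo1, chr11:23256021-23256060, plus strand: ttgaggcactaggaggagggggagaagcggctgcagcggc
On the gene strand CTTTC was found in 20 of 70 windows of the cytosolic ribosomal protein genes (28.6%, from 59 genes with an entry). It was in 2 of 5 windows of the host list, while 1805 of all 32851 windows held it (5.49%). The chromatin remodelers and histone modifiers, whose exons were mostly lower in labeled RNA, had it in 1 of 20 windows (5.0%). On the other strand it was in 4.29% of the ribosomal protein windows and 4.86% of all windows.

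The deposited values are abundances per length on a common scale: each of the 4 libraries of 30 min sums to between 19989924 and 19992902 units, so a value is a share of its library and not a number of molecules, and the sequencing depth of a library is not in the table. The cells carried their expected markers. All 16 mESC markers listed were at 20 units or more in all 4 libraries, with sums of 31921 to 37154 units, whereas 6 of 9 fibroblast markers (Col1a2, Col3a1, Postn, Pdgfrb, Lum and Dcn) were at 0 and that list summed to 84.7 to 136 units. Primitive endoderm markers summed to 3239 and 3576 units in labeled and 4743 and 5251 in total RNA. Nearly all of this was Sparc, at 3130 and 3487 in labeled and 4607 and 5124 in total RNA. Sox17 was at 0, Gata6 at most at 1.37 and Gata4 at most at 21.7 units. Trophectoderm markers summed to at most 21.8 units with Cdx2 at 0, and neural markers to 307 to 442 units. The part of these cells in the results was not tested, and in RNA from whole cultures fewer cells of a type cannot be told apart from less RNA per cell. The labeled replicates of 30 min ranked exonic features alike (Spearman correlation 0.958 over 25318 features, a description), while those of 15 and 60 min stood further apart (0.847 and 0.84).

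Introns held 9.35% and 10.8% of the summed signal in labeled RNA at 30 min and 7.34% and 7.41% in total RNA (10.1% ± 1.0 against 7.37% ± 0.044, SD, n = 2 each). Both labeled libraries were above both total libraries. An exact permutation test of 2 against 2 libraries cannot go below a two-sided p of 0.333. The 2 labeled libraries of 15 min held 14.8% and 7.24%, and those of 60 min 13.9% and 6.99%. Labeled replicate 2 of both times thus lay within the range of the 6 total libraries (6.53% to 7.41%), so by this measure those libraries do not stand apart from total RNA, and whether their labels are right was not tested.

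The labeled-to-total difference of each gene was tested on log2(value + 1) in a limma fit over all 12 libraries, with 1 mean for each RNA kind and labeling time. Of 25318 exonic features 0 passed an adjusted p of 0.05, and 2820 had an unadjusted p under 0.05 (11.1%). Of 12621 intronic features 1 passed (0.00792%), Ndufb10, and 1482 had an unadjusted p under 0.05 (11.7%). Fitted to the 4 libraries of 30 min alone, 71 exonic features were called higher (0.28%) and 30 lower (0.118%), and 4204 intronic features higher (33.3%) and 91 lower (0.721%). With library weights, under which the discordant libraries of 15 and 60 min count less, 1929 exonic features were called higher (7.62%) and 2644 lower (10.4%), and 4986 intronic features higher (39.5%) and 107 lower (0.848%). Because the outcome turned on how the spread was estimated, values are given per library below. There "higher" and "lower" mean that both labeled libraries lay above or below both total libraries. Were the 2 kinds of RNA alike, a share of about 0.333 of features would still be higher or lower by this measure. Groups that do not overlap thus do not show that a given feature differs, and the names carry no call except where a test is stated.

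By that measure 6923 exonic features were higher in labeled RNA (27.3%) and 8894 lower (35.1%), with a median log2 difference of -0.04. In 727 exonic features (2.87%) every labeled library was at least 2-fold above every total library, and in 95 (0.375%) at least 2-fold below. Of the intronic features 8049 were higher (63.8%) and 875 lower (6.93%), with a median of 0.47, and 1273 (10.1%) were at least 2-fold higher in every pairing against 5 (0.0396%) lower. The counts within lists below are to be read against these shares of all features. The filter takes the mean over all 12 libraries, so a feature low in total RNA can pass it through its labeled values. The median total level was 20.1 units in the 82 protein-coding genes at least 2-fold higher in exons in every pairing. It was 362 units in the 25 lower. Exons of Gadd45g and Zfp672 and introns of Ndufb10 and Mylpf, given below, were under 20 units in both total libraries. The 2-fold counts are therefore a description. The direction of introns as a whole rests on the deposited scale: when each library was centred on its median, which moved every intronic difference by -0.54 and their median to -0.06, 3851 intronic features were higher (30.5%) and 5138 lower (40.7%), and after quantile normalization 3999 (31.7%) and 4930 (39.1%). The same centring moved exonic features little, to 6811 higher (26.9%) and 9041 lower (35.7%), and quantile normalization gave 6901 (27.3%) and 8985 (35.5%). Of the features called with library weights, 97.9% of the intronic ones were higher as deposited and 44.5% after centring, and for exons 42.2% and 37.4%. In the fit to the 4 libraries the share higher went from 97.9% to 44.1% for introns and from 70.3% to 39.7% for exons.

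**Figure D1:**
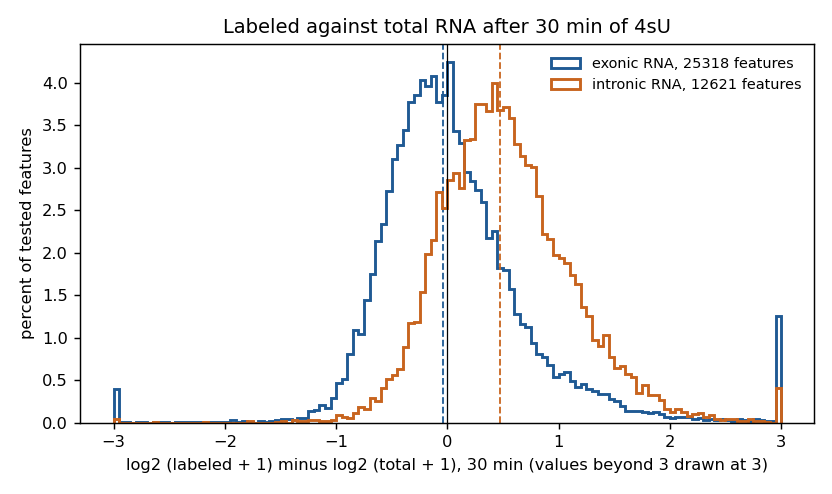
Distribution of the labeled minus total log2 difference at 30 min over the tested exonic (25318) and intronic (12621) features, with the percent of features on the y axis, the log2 difference on the x axis and lines at the medians. Exonic differences lie around 0 (median -0.04), and intronic differences around 0.47.

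Among exonic features with a gene symbol (13977 of 25318), those with the highest difference were snoRNAs, RNAs that match the mitochondrial genome and noncoding genes. Of the 727 features at least 2-fold higher in every pairing, 516 were transcripts not in the gene annotation and without a symbol, 333 of them with TCONS names. The ranking of named genes asked for a mean of at least 200 units and was filled without the threshold, since no exonic feature passed it (adjusted p 0.0753 for Snora44, the lowest among those named). Snora44, an H/ACA snoRNA inside Snhg12 (chr4:132309953-132310069), was at 458 and 379 units in labeled and 38.8 and 69.3 in total RNA, 7.75-fold higher (log2 2.98 ± 0.37, SE). Snord14c and Snord14d are C/D snoRNAs in introns of the chaperone gene Hspa8 (chr9:40803583-40803669 and chr9:40803995-40804081). Snord14c was at 277 and 734 units in labeled RNA and Snord14d at 226 and 611. Both are listed at 0 in both total libraries. Their host was not higher in labeled RNA, with Hspa8 introns 0.836-fold (log2 -0.256) and exons 0.757-fold (log2 -0.401). Both snoRNA transcripts are 86 bases long, shorter than the sequenced reads. Snora3, in an intron of Rpl27a, was at 675 and 724 units against 0 and 156, SNORD79 in Gas5 at 2729 and 1223 against 0 and 315, and snoU83B in Rpl3 at 741 and 1320 against 0 and 221. For the last 3 the total replicates differed from each other by the whole of their value, and none passed the fit to the 4 libraries.

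Gm10222, Gm11407, Gm13339 and Gm11408, also at the top, match mitochondrial RNA, which the mitochondrial genome encodes and its own polymerase makes. Gm10222 (chr1:24612404-24612700) was at 50795 and 51044 units in labeled and 9963 and 11195 in total RNA, and all 297 bases of its transcript match the mitochondrial genome at 100.0% identity. Gm11407 was at 66350 and 64150 units against 14464 and 14763 (4.46-fold, 92.4% identity), Gm13339 at 45493 and 54952 against 7103 and 11262 (5.47-fold, 96.7%), and Gm11408 at 23944 and 23293 against 3500 and 4086 (6.23-fold, 93.6%). The groups lay far apart in each. The tested table holds no gene named as mitochondrially encoded. Reads of Gm10222 cannot be told apart from reads of mitochondrial RNA, and for the other 3, which differ from it, the part of mitochondrial reads in the values was not tested.

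The other names at the top were noncoding genes. Gm11974, the snoRNA host Snhg15 in newer annotation (chr11:6525591-6528760), was at 1955 and 1765 units against 501 and 506, 3.69-fold higher (log2 1.88 ± 0.45). Gm17132 was at 664 and 738 against 179 and 199, and is uncertain, since 934 bases of it match A830010M20Rik at 93.3% identity. With library weights, 10 of the 12 exonic names at the top passed, the exceptions being SNORD79 (adjusted p = 0.112) and snoU83B (adjusted p = 0.0591). The names were ranked on libraries that this fit also holds, so passing it is no independent support.

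**Figure D2:**
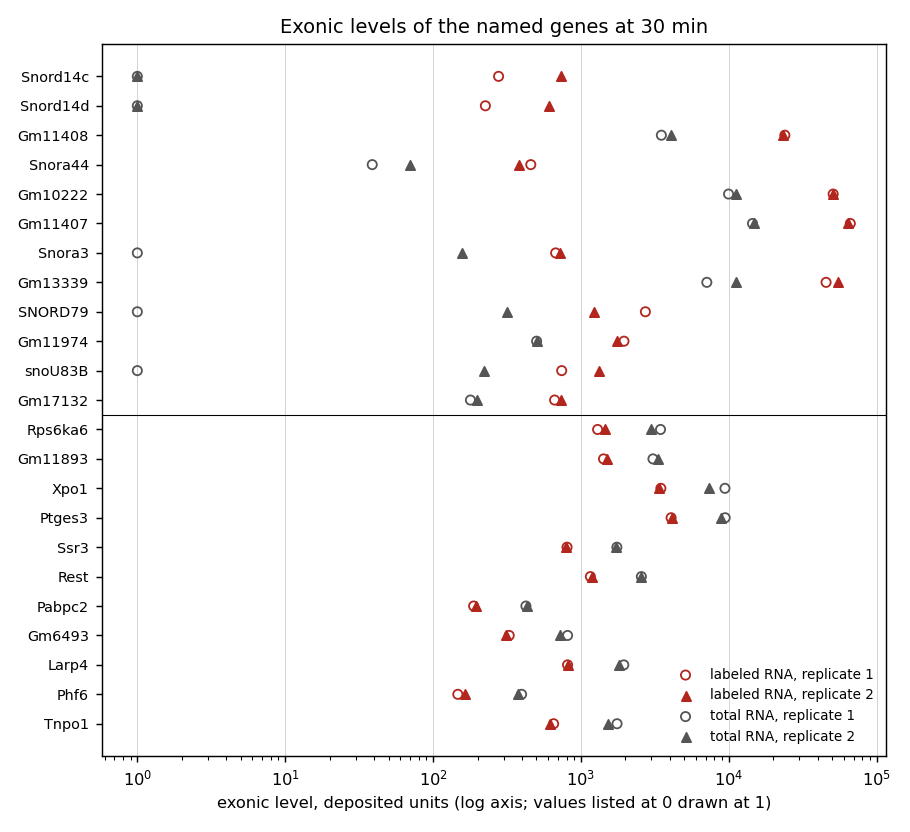
Values of the named exonic genes in the 2 labeled and 2 total libraries of 30 min, on a log axis of deposited units, with values listed at 0 drawn at 1, circles for replicate 1 and triangles for replicate 2. In each gene named as higher both labeled points lie above both total points, and in each gene named as lower below them.

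Small noncoding RNAs as a list followed the same direction. Of 56 tested (snoRNAs, small Cajal body RNAs and the like) 31 were higher and 2 lower, with a median log2 difference of 1.21, and 19 were called higher and 0 lower with library weights. Among the 29 of these above 0 in all 4 libraries 23 were higher, with a median of 1.16, while 15 of the 56 were at 0 in both total libraries and 7 in both labeled libraries. Their transcripts are 72 to 238 bases long, so many are near the read length, and their reads cannot be told apart from those of unspliced host RNA. Over all 228 features classed as snoRNAs 102 were higher and 9 lower (median 1.06).

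Their position within host genes gives the context. Of those 228, 153 lie inside another gene on the same strand, and 72 of these were higher and 5 lower. For the other 75 the annotation used held no such host, which does not place them outside any gene, and 30 of them were higher and 4 lower. The 109 hosts with tested exons had a median exonic difference of -0.12 and 33 were higher, where 27.3% of all exonic features were. Of 99 with tested introns 77 were higher, where 63.8% of all intronic features were, with a median of 0.87 (0.47 over all). Snora31, in an intron of the translation-related gene Tpt1, was at 552 and 485 units against 265 and 298 (1.84-fold), where the introns of Tpt1 were at 742 and 797 against 224 and 248 and its exons were 0.904-fold. Snora73a in Snhg3 was at 1857 and 1732 units against 745 and 688 (2.5-fold), and Snora61 in Snhg12 at 552 and 480 against 114 and 167 (3.67-fold). Snord12 went the other way, at 263 and 478 units in labeled RNA and 2067 and 507 in total RNA, and its total replicates differed more than the groups did.

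The 4 tested noncoding genes of the host list were themselves higher in labeled RNA in both exons and introns. In exons 3 of them were at least 2-fold higher in every pairing. Gas5 (chr1:161034601-161038539), of whose start windows above 1 of 2 holds the searched motif, had exons at 74677 and 67435 units in labeled and 32703 and 30161 in total RNA (2.26-fold, log2 1.18 ± 0.20, adjusted p = 0.17). Its introns were at 42148 and 41338 against 19412 and 16757 (2.31-fold). Snhg12 exons were at 5946 and 4864 units against 2200 and 1748 (2.74-fold, the highest of the list) and Snhg3 exons at 6122 and 4402 against 2022 and 1977 (2.63-fold). Snhg11, the lowest, was at 152 and 193 against 143 and 145. Gas5, Snhg12 and Snhg3 passed with library weights.

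Long intergenic noncoding RNAs (lincRNAs) as a class had a higher exonic median than protein-coding genes. Of 143 lincRNAs 88 were higher in exons and 16 lower, with a median log2 difference of 0.54, and 37 were called higher and 2 lower with library weights. Of 3019 transcripts with TCONS names, which assemblers give to transcripts built from reads, 1731 were higher and 220 lower (median 0.50). Of 10637 protein-coding genes 2411 were higher and 4278 lower (median -0.10). In introns the classes lay together, with medians of 0.56 for 157 lincRNAs and 0.53 for 8351 protein-coding genes.

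Among protein-coding genes, immediate early genes, which growth factors and handling induce within minutes and whose mRNAs decay fast, were mostly higher. Of 16 tested 13 were higher and 2 lower in exons (median 0.90), and 9 were called higher and 0 lower with library weights, although none passed the fit to all libraries (adjusted p 0.29 to 0.943). Gadd45g, a stress-induced growth regulator, was at 61.7 and 44.4 units in labeled RNA and 13.3 and 10.4 in total RNA (4.48-fold, log2 2.06 ± 0.63). Dusp1, the phosphatase that turns off MAP kinases, was at 1246 and 1350 units against 414 and 566 (2.65-fold, log2 1.42 ± 0.38), and its introns at 151 and 186 against 51.1 and 44.5 (3.52-fold). Ier2 was at 73.7 and 61.1 units against 23.5 and 25.1, Ctgf, a secreted matrix protein, at 81.3 and 68.9 against 25.6 and 26.3, and the zinc finger factor Egr1 at 488 and 633 against 281 and 350. Srf, the factor that drives many of these genes, was the lowest of the list, at 18.7 and 23.2 against 23.8 and 29.1.

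Genes of the integrated stress response, the program that follows a block of translation initiation, went both ways in exons. Of 19 tested 7 were higher and 7 lower (36.8% each, against 27.3% and 35.1% of all exonic features, median 0.10). The highest were regulators. Ddit3, the transcription factor CHOP, was at 252 and 229 units against 63.4 and 93.0 (3.07-fold, log2 1.63 ± 0.34), and Ppp1r15a, the phosphatase subunit GADD34 that restores translation, at 200 and 251 against 62.8 and 87.3 (3.0-fold, log2 1.58 ± 0.26, adjusted p = 0.17). Atf4, the central factor, was at 763 and 659 units against 374 and 353. The amino acid transporter Slc7a5 was the lowest, at 205 and 183 units against 321 and 351 (0.577-fold). In introns all 14 tested were higher, 12 after centring. Ppp1r15a was the highest, at 40.0 and 64.8 units against 0 and 16.9. The splicing target Xbp1 had introns at 97.5 and 139 units against 20.95 and 27.99 (4.84-fold), and Psat1, a serine synthesis enzyme, was the lowest at 251 and 349 against 216 and 224. Id3, a BMP target that blocks differentiation factors, led the signal feedback genes, at 105 and 73.8 units in exons against 31.5 and 20.6 (3.44-fold), and of that list 12 of 22 were higher and 6 lower. Its lowest exonic member was Bcl3, at 47.4 and 101 against 105 and 128.

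**Figure D3:**
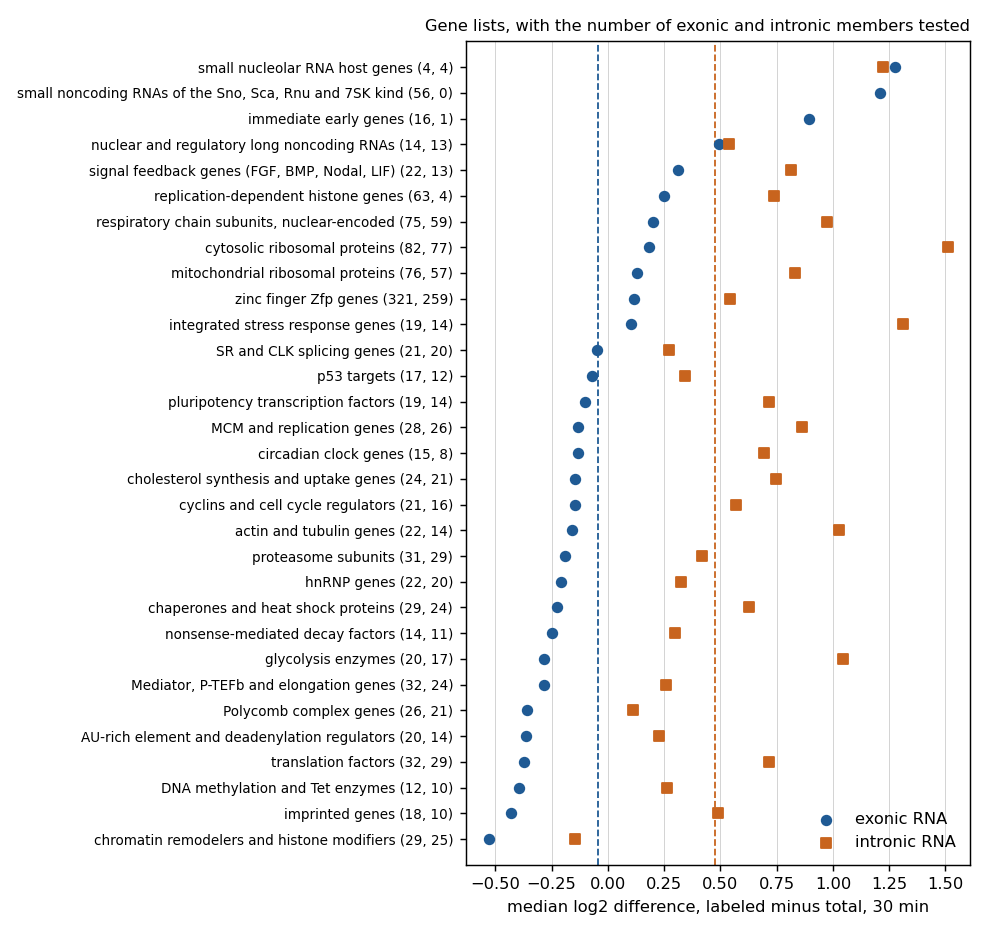
Median labeled minus total log2 difference at 30 min for each gene list, in exons (circles) and, for lists with at least 4 tested, in introns (squares), with the numbers tested in parentheses and dashed lines at the medians of all features. snoRNA hosts and immediate early genes lie at the upper end in exons and chromatin remodelers at the lower end, and cytosolic ribosomal protein genes at the upper end in introns.

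The exonic names with the lowest difference were mostly protein-coding genes of nuclear transport, RNA binding and signaling. They were ranked as above, filled without the threshold. Tnpo1, the import receptor transportin (chr13:98839019-98926384), was at 654 and 618 units in labeled and 1755 and 1516 in total RNA (0.389-fold, log2 -1.36 ± 0.28, adjusted p = 0.238, and 0.0487 in the fit to the 4 libraries). Xpo1, the export receptor with a start window printed above, was at 3472 and 3361 units against 9421 and 7330 (0.408-fold). Larp4, which binds poly(A) tails and stabilises mRNA, was at 812 and 813 against 1949 and 1823 (0.431-fold), and Pabpc2, a poly(A) binding protein gene, at 188 and 196 against 425 and 433. Pabpc2 matches Pabpc1 at 80.9% identity over 94.2% of its transcript, and the part of Pabpc1 reads in its values was not tested. Labeled and total libraries did not overlap in any of them, though the total replicates of Xpo1 differed (9421 and 7330) and it did not pass the fit to the 4 libraries (adjusted p = 0.0513).

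Transcription and signaling genes were also among them. Rest, the repressor of neuronal genes, was at 1159 and 1189 units against 2563 and 2567 (0.458-fold). The ribosomal S6 kinase Rps6ka6 was at 1296 and 1457 against 3454 and 2988, and Phf6, a chromatin protein, at 147 and 164 against 397 and 374. Ssr3, a subunit of the translocon-associated complex, was at 805 and 796 units against 1750 and 1733, and Ptges3, the HSP90 co-chaperone p23, at 4072 and 4134 against 9452 and 8856. Gm6493 (327 and 312 against 812 and 726) and Gm11893 (1422 and 1494 against 3070 and 3303) match Tnpo1 at 97.9% and Ptges3 at 94.3% identity, so they may share reads with those genes. The lower exonic genes named here passed with library weights, a fit that holds the libraries on which they were ranked.

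Lists of regulators of chromatin stood at the lower end in exons. Of 29 chromatin remodelers and histone modifiers 1 was higher and 23 lower (median -0.53), with 14 called lower and 1 higher under library weights, and 24 were lower after centring and 21 after quantile normalization. Smarcb1, a core BAF subunit, was the lowest, at 349 and 397 units against 691 and 670 (log2 -0.87 ± 0.23), and Chd4, the NuRD helicase, was at 1952 and 2112 against 3198 and 3148 (log2 -0.64 ± 0.16). Chd2 was the highest and the single higher member, at 888 and 757 units against 560 and 586. Of 26 Polycomb genes 16 were lower and 2 higher (median -0.36). Rnf2, the H2A ubiquitin ligase RING1B, was at 99.8 and 86.5 units against 213 and 190, and Suz12 of the PRC2 complex at 5315 and 5625 against 10721 and 9496, while Ring1 was the highest at 40.7 and 40.9 against 23.8 and 31.7. Of 12 DNA methylation genes 8 were lower and 1 higher (median -0.39), with the de novo methyltransferase Dnmt3b lowest at 3388 and 2636 against 5288 and 4822, and the maintenance methyltransferase Dnmt1 at 206 and 217 against 346 and 367.

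Genes of the translation machinery outside the ribosome were lower in exons as well. Of 32 translation factors 23 were lower and 2 higher (median -0.37), and 15 were called lower and 2 higher with library weights. Eif2s3x, a subunit of the factor that brings initiator tRNA, was at 1565 and 1487 units against 3242 and 3192 (log2 -1.08 ± 0.23), and Pabpc1, the main cytoplasmic poly(A) binding protein, at 22869 and 23404 against 44629 and 44005 (log2 -0.94 ± 0.19). Eif1, the start codon fidelity factor, was the highest, at 5553 and 5476 against 4179 and 3842. Of 20 regulators of AU-rich elements and deadenylation 11 were lower and 6 higher (median -0.36), from Cnot6l, a deadenylase, at 212 and 306 against 618 and 570, to Tob1, an antiproliferative adaptor, at 212 and 226 against 115 and 153. Of 18 imprinted genes 12 were lower and 3 higher (median -0.43), from Ube3a, a ubiquitin ligase, at 70.6 and 69.8 against 217 and 168, to Zrsr1 at 228 and 238 against 139 and 111.

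Introns were ranked separately with a mean of at least 50 units. Ndufb10, a complex I subunit (chr17:24722060-24724423), was the single feature past the threshold: its introns were at 122 and 230 units in labeled and 2.10 and 7.78 in total RNA, 35.7-fold higher (log2 5.02 ± 0.61, adjusted p = 0.0284). The call was lost at a pseudocount of 20 (log2 2.93), with no filter, after centring (log2 4.48) and without labeled replicate 1, labeled replicate 2 or total replicate 1 (log2 5.47, 4.56 and 4.27). The gene lies 132 bases past the end of Rps2, whose introns were also higher (789 and 1012 units against 90.4 and 180, 6.65-fold), and the part of the neighbor in the value was not tested. The remaining intronic names were filled without the threshold. Akt1s1, the mTORC1 inhibitor PRAS40, had introns at 211 and 210 units against 32.1 and 37.2 (6.08-fold), Mylpf, a muscle myosin light chain, at 119 and 115 against 4.60 and 4.50, Thap7 at 120 and 108 against 1.13 and 10.3, and 1700067K01Rik at 149 and 64.8 against 3.83 and 2.58. Gm14127 (2394 and 722), Gm17300 (296 and 267) and Gm13375 (243 and 644) are listed at 0 in both total libraries, and Gm14127 is a near copy of 1110005A03Rik (98.2% identity). All 8 passed with library weights, a fit that holds the libraries on which they were ranked.

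At the other end, introns were lower in labeled RNA in fewer genes. Luc7l, a splicing factor of the U1 particle, was at 3023 and 3120 units against 5379 and 5404 (0.570-fold, log2 -0.81 ± 0.25). Cd44, a cell surface receptor, was at 25.1 and 20.5 units against 50.5 and 129, Nlk, a kinase of the Wnt pathway, at 169 and 183 against 319 and 300, and Abhd15 at 269 and 265 against 560 and 459. Gm17344 was at 62.5 and 61.9 against 117 and 96.9, and 9330020H09Rik, at 0 and 31.7 against 95.7 and 134, had labeled replicates that disagreed. Gm14239 (129 and 141 against 257 and 253) and Gm15425 (466 and 422 against 748 and 787) match Cdv3 at 90.2% and Trip12 at 89.6% identity and are uncertain.

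The cytosolic ribosomal protein genes had higher introns in labeled RNA. All 77 tested were higher as deposited, 70 after centring and 73 after quantile normalization, with a median log2 difference of 1.51 (0.97 after centring), and in 59 every pairing was at least 2-fold. With library weights 75 were called higher, as in the fit to the 4 libraries. Some of these genes hold snoRNAs, such as Snora64 in Rps2, SNORD36 in Rpl7a, SNORA73 in Rpsa and Snora3 in Rpl27a. The part of snoRNA reads in the intronic values was not tested. Rps2, the highest, is given above (log2 2.80 ± 0.63, adjusted p = 0.238). Rpl7a, whose start window holds the motif, had introns at 1447 and 1474 units against 304 and 289 (4.93-fold, log2 2.30 ± 0.38, adjusted p = 0.161), Fau at 58.0 and 64.1 against 19.2 and 6.76, and Rpsa, without the motif in its window, at 80.5 and 96.5 against 16.4 and 22.9. Rpl18 was the lowest, at 1371 and 1391 against 1112 and 971 (log2 0.41 ± 0.34), a difference under the centring shift.

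Their exons differed less. Of 82 tested 52 were higher and 10 lower, with a median log2 difference of 0.18, and 42 higher and 8 lower after centring. None was 2-fold in every pairing, and 22 were called higher with library weights. Rpl7a exons were at 27237 and 25425 units against 27488 and 27336, and Rps2 exons at 15109 and 14188 against 17938 and 15841, in both cases with the intronic difference far above the exonic. In all 77 genes with both measures the intronic difference was above the exonic one on the deposited scale, by a median of 1.31 on the log2 scale, and in 73 after centring, by 0.78. Rpl39l, a testis-enriched paralog, was the highest in exons (176 and 189 units against 68.3 and 97.9) and Rps10 the lowest (9728 and 7832 against 11140 and 11034). Ribosomal protein genes have many processed copies in the genome, so their exonic values are uncertain where reads were split among copies.

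**Figure D4:**
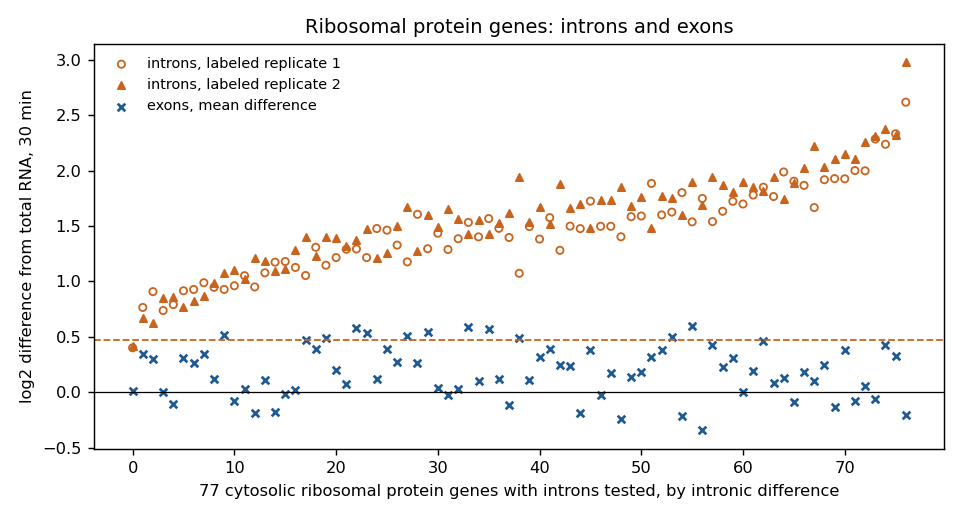
Intronic and exonic labeled minus total log2 differences at 30 min (y axis) of the cytosolic ribosomal protein genes in order of the intronic difference (x axis), with introns of each labeled replicate against the mean of total RNA, exons as a mean difference and a dashed line at the median of all introns. In all 77 genes the intronic difference lies above the exonic one on the deposited scale (73 after centring), and all intronic differences are above 0 (0.41 to 2.80).

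Glycolysis enzymes showed the opposite directions in the 2 measures. In exons 14 of 20 were lower and 1 higher (median -0.28), and in introns 14 of 17 were higher and 1 lower (median 1.04, 11 higher and 4 lower after centring). Aldoa, aldolase, had exons at 5338 and 4741 units against 7840 and 7854 and introns at 157 and 165 against 37.4 and 46.6 (3.82-fold). Gapdh exons were at 96075 and 93989 against 100498 and 111150, and its introns at 1018 and 1315 against 323 and 331 (3.57-fold). Pgam1, the lowest in exons, was at 1617 and 1457 against 2700 and 2204, and Slc16a3, a lactate exporter, the highest at 189 and 122 against 123 and 112. Hk2 was the lowest in introns, at 651 and 695 against 733 and 772.

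Other housekeeping genes also had larger intronic than exonic medians. Of 59 nuclear-encoded respiratory chain subunits with tested introns 57 were higher and 0 lower (median 0.97, 35 higher and 6 lower after centring), against 32 higher and 17 lower of 75 in exons (median 0.20). Uqcrq of complex III had introns at 3859 and 4574 units against 1091 and 1112 (3.83-fold), Cox8a of complex IV at 108 and 108 against 20.1 and 25.0 (4.77-fold), and Ndufs1 was the lowest at 60.3 and 79.6 against 68.8 and 58.2. Of 29 translation factors 24 had higher introns (median 0.72, 14 higher and 9 lower after centring). Eef1a1, the main elongation factor, had introns at 583 and 422 units against 45.1 and 121 (6.07-fold) while its exons were at 66391 and 66210 against 88352 and 83879. Eif4e, the cap-binding protein, was the lowest in introns at 17.9 and 27.8 against 33.2 and 30.4.

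Pluripotency factors divided by gene. In exons 8 of 19 were higher and 7 lower (42.1% and 36.8%, against 27.3% and 35.1% of all exonic features). The median was -0.10, and 0.06 after quantile normalization or without total replicate 2. Klf2 (240 and 209 units against 153 and 118) and Mycn (2247 and 1655 against 1291 and 1042) were the highest, and Pou5f1, which encodes OCT4, was the lowest at 1188 and 1045 against 1621 and 1798 (log2 -0.62 ± 0.18). In introns 10 of 14 were higher (71.4%, against 63.8% of all) and 1 lower, and after centring 6 were higher and 4 lower. Mycn introns were at 356 and 405 units against 78.0 and 99.9 (4.28-fold), and Pou5f1 introns at 170 and 210 against 55.7 and 55.8 (3.41-fold), opposite to its exons. Nr5a2, the lowest in introns, was at 19.2 and 37.3 against 36.0 and 45.8.

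Chromatin genes had medians below that of all features in both measures. Of 25 remodelers and histone modifiers with tested introns 8 were higher and 9 lower (median -0.15), and after centring 2 were higher and 16 lower. Their intronic members ran from Smarcc2 at 31.1 and 42.4 units against 17.2 and 22.4 down to the demethylase Kdm6a at 27.4 and 31.1 against 47.5 and 37.7. Of 21 Polycomb genes 9 were higher and 4 lower (median 0.11, 4 higher and 14 lower after centring). Jarid2, which recruits PRC2, had introns at 923 and 969 units against 1484 and 2402, Rybp was the lowest at 15.8 and 20.9 against 46.1 and 35.9, and Phf19 the highest at 29.2 and 30.6 against 12.1 and 13.4.

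Genes of growth and division gave further cases. Of 28 MCM and replication genes 13 had lower exons and 4 higher (median -0.13, and 0.01 after quantile normalization), while 23 of 26 had higher introns (median 0.86, 15 higher and 4 lower after centring). Mcm4, a helicase subunit, was the lowest in exons at 392 and 382 units against 680 and 625, and Rpa2, of the single-strand binding complex, the highest at 621 and 515 against 348 and 346. In introns Rrm2, a subunit of ribonucleotide reductase, was the highest at 177 and 202 units against 41.6 and 82.5, and Pola1, of DNA polymerase alpha, the lowest at 30.6 and 35.7 against 45.6 and 47.1. Of 63 replication-dependent histone genes, whose mRNAs are degraded at the end of S phase and mostly lack introns, 14 had higher exons (22.2%, against 27.3% of all exonic features) and 0 lower (median 0.25, but -0.29 without total replicate 1 and 0.76 without total replicate 2). Hist1h1b, a linker histone, was the highest at 217 and 293 units against 98.2 and 160, and Hist1h2bm the lowest at 679 and 634 against 545 and 1159, where the groups overlapped.

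Lists of protein synthesis in mitochondria, protein turnover and the cytoskeleton are read against the 63.8% of all introns that were higher. Of 76 mitochondrial ribosomal proteins 32 had higher exons and 12 lower (median 0.13), and of 57 with tested introns 46 were higher and 1 lower (median 0.83, 28 higher and 8 lower after centring), led by Mrps2 at 74.4 and 51.4 units against 11.6 and 12.6. Of 31 proteasome subunits 16 had lower exons and 4 higher (median -0.19), but 9 lower and 11 higher after quantile normalization (median -0.04). Of 29 with tested introns 20 were higher (69.0%, median 0.42, under the median of all introns), and after centring 11 were higher and 12 lower. Psmd1, a base subunit, was the lowest in exons, at 4530 and 4429 units against 7549 and 7013, and Psmb6, a catalytic subunit, the highest in introns at 591 and 606 against 171 and 170. Of 22 actin and tubulin genes 14 had lower exons and 2 higher (median -0.16), and 10 of 14 had higher introns (71.4%, median 1.03, 7 higher and 2 lower after centring). The introns of the tubulin gene Tuba1b were at 325 and 272 units against 37.7 and 63.8, and those of Tuba1a, the lowest, at 648 and 543 against 736 and 696.

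The remaining lists differed in direction from each other. Of 321 zinc finger genes, many of which encode transcriptional repressors, 127 had higher exons and 75 lower (median 0.12). Zfp672 was the highest at 45.2 and 56.2 units against 4.17 and 15.1, and Zfp654 the lowest at 106 and 105 against 261 and 152. Of 24 cholesterol genes 7 had lower exons (29.2%, under the 35.1% of all exonic features) and 1 higher (4.17%, against 27.3%). In introns 19 of 21 were higher (median 0.75, 11 higher and 0 lower after centring), led by Insig1, the sterol sensor, at 89.4 and 129 against 33.5 and 36.4. The 9 nuclear and regulatory long noncoding RNAs with higher exons (of 14, 2 lower, median 0.49) were led by Nespas, an imprinted antisense RNA whose reads cannot be told apart from those of its partner without strand, at 68.3 and 84.7 against 24.7 and 34.4. The exonic medians of the other lists lay between -0.28 for Mediator and elongation genes and -0.05 for SR and CLK splicing genes, and those of SR and CLK genes and p53 targets turned to 0.05 and 0.04 after quantile normalization. Only 3 lineage transcription factors were tested in exons, and 0 had groups that did not overlap.

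Over 7731 genes with both exons and introns tested, 1600 (20.7%) were higher in both, 1525 (19.7%) had lower exons and higher introns, and 273 (3.53%) were lower in both. In 1995 (25.8%) the introns were higher and the exons overlapped, and in 1404 (18.2%) the exons were lower and the introns overlapped. Higher exons with lower introns occurred in 19 genes. The median exonic and intronic log2 differences of the 1525 genes with opposite directions were -0.38 and 0.62. These counts are on the deposited scale, and centring lowers the intronic difference of every gene.

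Gene structure varied along the ranking of differences. Among 10636 protein-coding genes with tested exons, the decile with the lowest exonic difference (median -0.73) had a median genomic span of 52229 bases, 10 exons, 2974 exonic bases, 26.6% uridine and 45.7% GC, and the decile with the highest (median 0.76) a span of 8707 bases, 4 exons, 1521 exonic bases, 22.9% uridine and 53.3% GC. The medians of total RNA level were 329 and 43.4 units. That level is itself subtracted in the difference that ranks the genes, so part of this contrast is fixed in advance. With 8350 genes ranked by intronic difference, the median span went from 75075 bases in the lowest decile to 6735 in the highest. The uridine share of their spliced transcripts went from 26.3% to 22.5%. Over genes the intronic difference had a Spearman correlation of -0.549 with span, 0.421 with GC and -0.302 with uridine share, and the exonic difference -0.43, 0.282 and -0.258. These are descriptions over genes of the same 4 libraries, whose span, composition and level are themselves related. Spans come from GENCODE M1 gene models. Uridine and GC shares are those of the spliced sequence of each gene's most abundant protein-coding transcript there. This holds for the intronic ranking too, so they do not describe the introns.

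**Figure D5:**
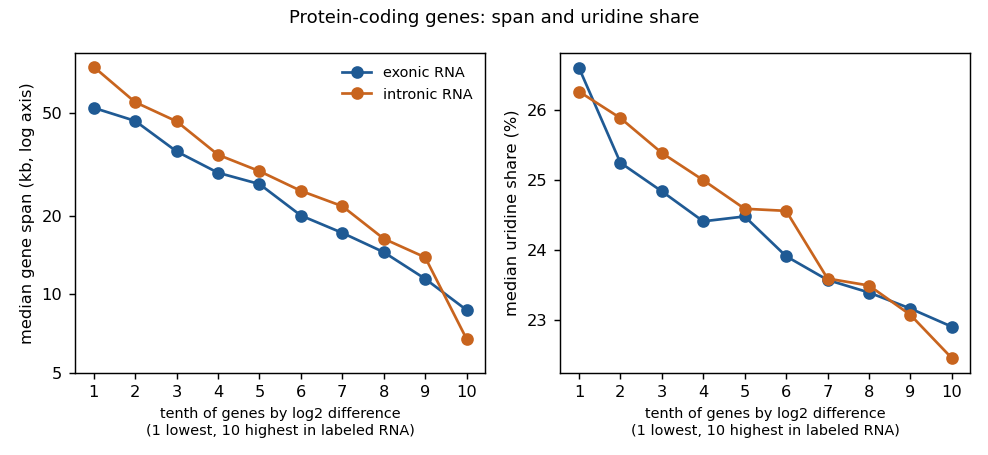
Median gene span in kb, on a log axis, and median uridine share of spliced transcripts in percent. Both are given over deciles of the exonic and of the intronic labeled minus total log2 difference at 30 min, for protein-coding genes. Span falls from 52229 to 8707 bases across exonic deciles and from 75075 to 6735 across intronic deciles.

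Whether the differences were particular to 30 min was asked by testing each against the mean of the differences at 15 and 60 min in the same limma fit, which share no libraries with it. This test rests on the labeled libraries of 15 and 60 min, whose second replicates had intron shares in the range of total RNA. Of 25318 exonic features 5 passed, all higher at 30 min (0.0197%), and 173 had an unadjusted p under 0.05 (0.683%). Of 12621 intronic features 0 passed, and 25 had an unadjusted p under 0.05 (0.198%). The 5 were 3 members of the miR-466 family, mmu-mir-466c, Mir466b-5 and Mir466b-7, and 2 transcripts without a symbol. mmu-mir-466c was at 219 and 199 units in labeled RNA of 30 min, at 0 in all other labeled libraries, at 206 and 118 in total RNA of 15 min and at 0 in total RNA of 30 and 60 min (log2 11.36 ± 1.11, adjusted p = 0.0157). Mir466b-5 and Mir466b-7 were present and absent in the same libraries. These precursors are short and closely alike, so their reads cannot be assigned to 1 member.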

How the data were processed

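Ribosomal RNA-depleted labeled and total RNA of mESCs was sequenced by the authors as 100-base single-end reads. Per the labels and the study's methods, reads of ribosomal RNA were removed with STAR 2.5.0, abundances of exonic and intronic sequences were estimated with RSEM, and the build was mm10. Strand use is not given in the sources used here. The deposited values are signal, an abundance per transcript length that sums to 19988830 to 19992902 per library over exons and introns. They are not counts, so no count model was used, and the depth per library is unknown.

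Transcripts were matched to genes by identifier in GENCODE M1 (83847 of 121429 exonic and 72792 of 91702 intronic transcripts matched) and summed per gene, with missing values taken as 0. Unmatched transcripts stayed as features. Features with a mean of at least 20 units over 12 libraries were tested on log2(value + 1) with limma 3.58.1 (R 4.3.3), with a variance trend, 6 group means, two-sided tests and Benjamini-Hochberg adjustment at 0.05. A fold change on this scale understates the change of low genes, and folds printed are ratios of means. Alternatives were pseudocounts of 5 and 20, a filter at 100 or none, median centring, quantile normalization, transcripts in place of genes, library weights, a replicate block, the 4 libraries alone, and each of the 4 libraries of 30 min left out. After the data were seen, weights and the 4 libraries were each combined with centring, and the labeled libraries of 15 and 60 min were left out.

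On simulated data of 25318 exonic features the fit to all 12 libraries recovered 6 of 100 features changed by a log2 of 1. It recovered 37 of 100 changed by 2, and on 12621 intronic features 0 of 100 at either size. The fit to the 4 libraries recovered 0 of 100 changed by 2 in exons and 0 of 100 in introns. The simulation gave a feature the same spread in every group, unlike the real libraries. Over exonic features the SD of labeled replicate 1 minus replicate 2 was 1.213 at 15 min, 0.779 at 30 min and 1.276 at 60 min. These counts are thus not the power of the real fits. Base matches were found with BLAST 2.17.0.

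Named genes were the 12 exonic and 8 intronic genes each way with a symbol whose least separated pair of a labeled and a total library lay furthest apart, at a mean of at least 200 or 50 units, plus the highest and lowest member of each list described. All other list members and snoRNAs named (such as Gas5, Dusp1, Atf4, Xbp1, Rpl7a, Chd4, Suz12, Pabpc1 and Gapdh), and the counts of groups that did not overlap or differed by 2-fold, were chosen after values were seen. The comparison and its 32 gene lists were chosen with earlier results of these data known. A few genes that the rule selects are not reported here.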

Additional observations from a re-analysis of the deposited data

Results flagged for a closer look

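For 5 exonic features the labeled-to-total difference at 30 min differed from the mean of the differences at 15 and 60 min by the test of that difference itself (limma, adjusted p 0.0157 to 0.0253). The difference of differences was 11.36 for mmu-mir-466c, 11.49 for Mir466b-5, 11.69 for Mir466b-7, 11.44 for ENSMUST00000180061 and 10.92 for ENSMUST00000178801, on the log2(value + 1) scale. Each was above 0 in both labeled libraries of 30 min and both total libraries of 15 min and at 0 in the 8 others, and none passed with the replicate block. The sizes depend on the pseudocount, since most values are 0.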

How the results depend on the processing

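The values are relative, with no depth per library, so a lowest detectable difference could not be set. With 0 exonic and 1 intronic feature called, the counts depended on the estimate of the spread. Exonic calls were 4573 with library weights (4726 with centring added), 101 in the 4 libraries alone (1693 with centring) and 189 without the labeled libraries of 15 and 60 min. They were 11 and 10 at pseudocounts of 20 and 5, 21 with no filter, 8 after quantile normalization, and 0 to 55 when 1 library of 30 min was left out. The 55 came without total replicate 2 and 5 without labeled replicate 1. Intronic calls were 5093 with weights (4430 with centring), 4295 in the 4 libraries (3360 with centring) and 3749 without the labeled libraries of 15 and 60 min. They were 2 and 0 at pseudocounts of 5 and 20, 0 with no filter, with the filter at 100 and after centring, and 0 to 5 when 1 library was left out, with 5 without total replicate 2 and 0 without each of the others. All 101 exonic calls of the 4 libraries were among those with weights, and of the intronic ones 4195 were (97.7%). For the test of 30 min against 15 and 60 min, exonic calls went from 5 to 10 at a pseudocount of 20, to 19 with no filter, to 0 with the filter at 100, and to 4 to 26 when 1 library was left out, with 26 without total replicate 2 and 9 without labeled replicate 1, and intronic calls from 0 to between 0 and 1. The cause was not tested. Of 632 values of the 40 named genes under alternatives 0 reversed, 6 lost their call and 176 gained one. These genes were ranked on the libraries of 30 min that the alternatives also use.

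The main fit did not pair samples by replicate number. At 30 min the residuals of a labeled library and of the total library with its number correlated at 0.075 over exonic and 0.013 over intronic features. With 2 replicates each this cannot show whether the samples were paired. The study does not state whether libraries of the same time and number came from 1 culture. With the replicate block 0 exonic and 18 intronic features were called, and for the test of 30 min against the other times 0 and 2.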
